A study of Homo sapiens with 41 samples.

Results

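The step described here lies between 2 windows of the T98G serum response: the libraries of 80, 90 and 100 min after serum was given back, and the libraries of 50, 60 and 70 min that precede them. The 6 libraries were chosen by their labelled time alone, out of 41 in the course. T98G, an established cell line from a human glioblastoma, leaves the cell cycle without serum. In both windows the cultures had been held without serum for 72 h and were then given medium with 20% fetal calf serum, so the groups differ by label only in the minutes since serum. All samples come from this single line, and total RNA was depleted of rRNA and sequenced by strand. Each time point has 1 library, so neighboring time points stand in for replicates, and the spread inside a window includes whatever change took place within it. The library totals were 36781459 to 51723300 counts at 80–100 min and 28043669 to 64948114 counts at 50–70 min. Values are normalized read counts, which are counts divided by a size factor of the library.

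Serum acts through growth factor receptors, ERK and actin signaling. Immediate early genes such as FOS and EGR1 need no new protein for their transcription, and their short-lived mRNAs disappear within the first hours. Their protein products act on a later set of genes that includes secreted ligands and feedback inhibitors of the pathways. The serum response factor SRF acts on immediate early genes and, with its actin-regulated cofactors of the MRTF family, on components of the actin cytoskeleton. Quiescent cells also express genes of growth arrest under FOXO factors, which growth factor signaling moves out of the nucleus.

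Between the windows 13 of 26 tested immediate early regulators, 5 of 9 dual-specificity phosphatases and 14 of 32 growth arrest genes fell. In the same lists 5, 2 and 4 genes rose. With spike-in size factors 8, 2 and 4 fell and 5, 1 and 3 rose. In contrast, 16 of 21 secreted cytokines, 24 of 33 SRF and MRTF cytoskeletal targets and 23 of 34 MYC network and ribosome biogenesis genes rose. In these lists 0, 0 and 2 genes fell, and with spike-in size factors 15, 21 and 18 rose and 0 fell. All these calls are by the curve test described below. Of all tested genes 4.14% fell and 9.44% rose by that test, and 0.536% and 4.85% with spike-in size factors. The gene lists were chosen with earlier results of these data known, so their shares are descriptions and not independent evidence of a direction. In bulk RNA, fewer cells of a type and less RNA per cell cannot be told apart. Among protein-coding genes with a mean of at least 100 normalized counts over the 6 libraries, the largest falls were those of FOS, DUSP6, EGR1, SPRY1 and CDKN1B, with log2 changes of -3.08 ± 0.63, -2.08 ± 0.41, -1.78 ± 0.38, -1.65 ± 0.32 and -1.26 ± 0.24 (SE). The largest rises were those of NFATC2, AKAP12, PDGFB, ZNF469 and CLCF1, with log2 changes of 2.75 ± 0.34, 2.02 ± 0.41, 1.81 ± 0.36, 1.75 ± 0.29 and 1.74 ± 0.30 (SE). Negative values mean less at 80–100 min. For all of these genes the 3 libraries of one window lay entirely above the 3 of the other.

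**Figure D1:**
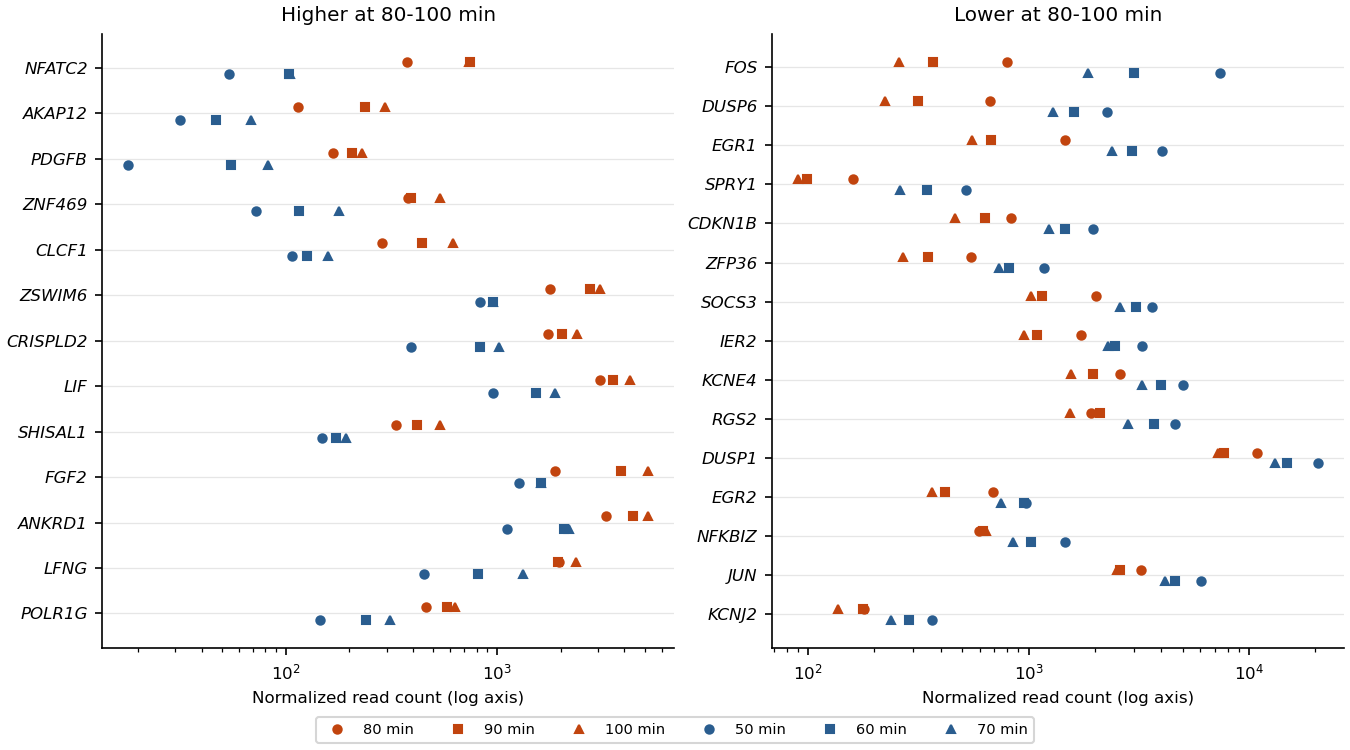
Normalized read counts (log axis) of 13 protein-coding genes among those that rose most (left) and the 15 that fell most (right), at a mean of at least 100 over the 6 libraries, with orange symbols for 80, 90 and 100 min above blue symbols for 50, 60 and 70 min. In no row do the 3 orange symbols overlap the range of the 3 blue ones; FOS had 797, 369 and 258 at 80, 90 and 100 min, against 7352, 2996 and 1853 at 50, 60 and 70 min.

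The planned comparison, called the window test below, set the 3 libraries of one window against the 3 of the other in edgeR's quasi-likelihood test. It called 0 of 21629 genes higher and 0 lower at a Benjamini–Hochberg adjusted p below 0.01 (0% in each direction), and its smallest adjusted p was 0.0602. At an unadjusted p below 0.05 it found 1485 genes higher and 793 lower, together 10.5% of the genes tested. DESeq2 on the same 6 libraries called 239 genes higher and 46 lower (1.1% and 0.213%). The second test, called the curve test, fitted a smooth curve of time through all 41 libraries and compared the mean of the curve at 80, 90 and 100 min with its mean at 50, 60 and 70 min, so that a steady trend inside a window does not count as noise. It called 2042 genes higher and 896 lower, 9.44% and 4.14% of the genes tested. With size factors from the spike-in sequences it called 1049 higher and 116 lower (4.85% and 0.536%), and under this scaling the median log2 change of all genes was 0.0988 in the curve and 0.261 in the window test, against -0.00052 under the deposited size factors in the window test. Below, "rose" and "fell" are used only of genes past the curve test, and log2 changes with SE are those of the 6-library fit. Differences between steps, given further below, are instead those of the fitted curve. Libraries close in time are not replicates of a condition, and the p-values of the curve test measure only the scatter of single libraries about a smooth curve.

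Of the genes past the curve test, 1299 of 2042 had all 3 values at 80–100 min above all 3 at 50–70 min, and 500 of 896 had all 3 below. Over all tested genes the corresponding shares were 9.33% and 7.07%. Most changes were small: the median gene that rose had a log2 change of 0.29 and the median gene that fell one of -0.28, while 98 rose and 47 fell by at least 2-fold. Protein-coding genes made up 1718 of those that rose and 667 of those that fell (12.2% and 4.75% of 14056), against 153 and 130 of the lncRNAs (4.36% and 3.71% of 3508) and 171 and 99 of the genes of other kinds (4.21% and 2.44% of 4065). The classes were not matched for read count, so these shares do not rank their responses. The median log2 changes of called lncRNAs were 0.42 and -0.47, and those of called protein-coding genes 0.27 and -0.25. As descriptions, the median gene span of protein-coding genes was 34.0 kb among those that rose, 28.4 kb among those that fell and 33.6 kb among all tested. Protein-coding genes took 54.1% ± 2.68 of counts at 80–100 min and 52.0% ± 1.13 at 50–70 min (SD, n = 3 each; two-sided exact permutation test, p = 0.3, where 0.1 is the smallest p that 3 against 3 can give). LncRNAs took 4.81% ± 0.116 at 80–100 min and 4.88% ± 0.27 at 50–70 min (p = 0.8 by the same exact test).

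Within the 6 libraries, those of 80 and 90 min depart from their neighbors. For 11145 protein-coding genes with a mean of at least 100, the departure of the 80 min library from the mean of its neighbors at 70 and 90 min followed transcript GC content (Spearman correlation 0.82 across genes, which are not independent). The median departure was -0.36 (log2) in the tenth of genes with the lowest GC content and 0.17 in the tenth with the highest. The 90 min library, which has the 80 min one as a neighbor, showed the opposite trend (correlation -0.80). The trend is not particular to this window: the libraries of 30, 190, 240 and 300 min gave 0.84, 0.73, 0.77 and 0.76, and the median absolute departure was 0.182 at 30 min and 0.127 at 80 min. Without the 80 min library the window test called 585 genes higher and 99 lower (2.7% and 0.458%), and 449 and 91 of these are also among the genes of the curve test. The curve test without that library called 2046 higher and 901 lower (9.46% and 4.17%), and with offsets for GC content it called 2500 and 1515 (11.6% and 7%). Among the genes of the main curve test, 1986 of 2042 and 886 of 896 kept their call and direction with the GC offsets. Leaving the 80 min library out of the curve test moved no count of the gene lists below by more than 1. Whether the GC trend has a part in any single difference was not tested. Of the defining markers, VIM, CD44, ANXA1, S100A6 and LGALS1 each had at least 13099 normalized counts in all 6 libraries, whereas NES was at 34.2 to 61.7, OLIG2 at 30.0 or less, FABP5 listed at 0, GFAP at 0 to 6.23 normalized counts and SOX2 at 0 to 0.778 in the 6 libraries. The 14 listed markers of other cell types summed to 3972 to 4329 at 80–100 min and 3696 to 3940.2 at 50–70 min, nearly all from CD68 and KRT18, with KRT5 at 0 in all 6. Of the markers tested, 2 of 8 for the line (CAV1 and CD44) and 1 of 9 for other cell types (KRT18) rose by the curve test. These shares are 25% and 11.1%, against 9.44% of all genes.

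**Figure D2:**
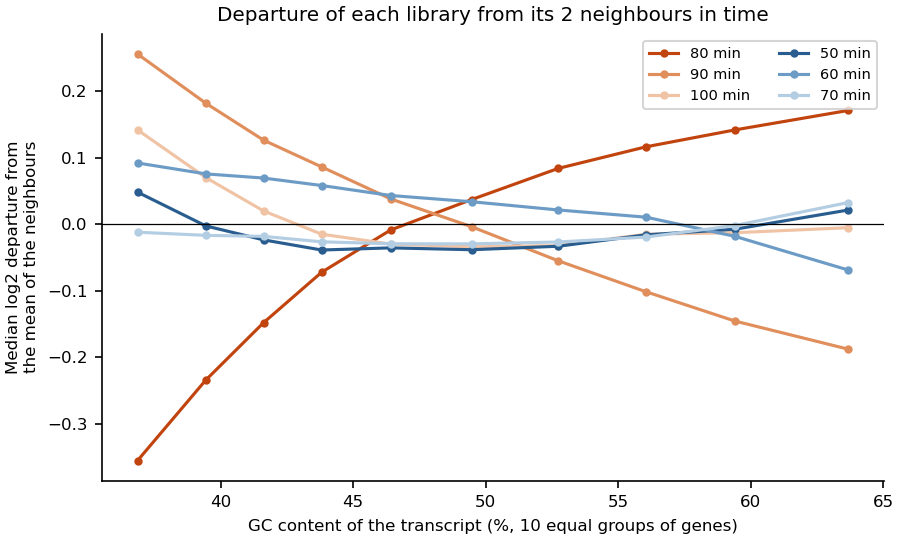
Median log2 departure of each library from the mean of the libraries 10 min before and after (vertical axis) against transcript GC content (horizontal axis) in 10 equal groups of 11145 protein-coding genes, with orange lines for 80, 90 and 100 min and blue lines for 50, 60 and 70 min. The 80 min line climbs by group from -0.36 to 0.17 and the 90 min line descends from 0.26 to -0.19, while the 50 and 70 min lines stay near 0.

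Among 26 immediate early transcription factors and regulators, 13 fell and 5 rose (50% and 19.2% of the list, against 4.14% and 9.44% of all genes), with a median log2 change of -0.17. FOS, the founding AP-1 subunit, is at chr14:75278826-75282230 in GRCh38 and had the largest fall; it had passed its highest value before the earlier window, as the time profiles show. Its curve-test adjusted p was 4.95e-36. EGR1, a zinc finger factor (chr5:138465479-138469303), had 1468, 677 and 555 normalized counts at 80, 90 and 100 min, against 4018, 2932 and 2382 at 50, 60 and 70 min. The values declined from library to library in both windows, and the curve-test adjusted p was 1.32e-17. ZFP36, which binds AU-rich elements and promotes mRNA decay, had 549, 352 and 271 at 80, 90 and 100 min, against 1178, 814 and 735 at 50, 60 and 70 min. IER2 also fell (-1.08 ± 0.24), and JUN and EGR2 fell by 0.83 and 0.86 on the log2 scale. Without overlap between the windows, KLF6 (-0.79), ATF3 (-0.61) and KLF4 (-0.20) also fell. FOSB fell by the curve test with overlapping windows (-0.18 ± 0.12), and its 6-library difference turned positive (0.061) when spike-in size factors were used.

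Not every early regulator declined. JUNB, a partner of FOS in AP-1, had 6785, 5801 and 6122 at 80, 90 and 100 min, against 3366, 4054 and 5724 at 50, 60 and 70 min, and rose (0.51 ± 0.19). ID1 and ID3, inhibitors of basic helix-loop-helix factors, rose by 0.40 and 0.44 on the log2 scale, KLF10 by 0.34 and SRF itself by 0.33. MYC did not pass either test: it had 5948, 4535 and 4769.6 at 80, 90 and 100 min, against 4275, 5252 and 5566 at 50, 60 and 70 min. HES1, a repressor downstream of Notch that oscillates in many cells, was at 3740.1, 2317 and 1756 in the later window, against 3198, 4586 and 4447 in the earlier one, with its 80 min value inside the earlier range. It fell by the curve test (adjusted p = 1.57e-08). With spike-in size factors, 8 members of the list fell and 5 rose; with a curve fitted only to the libraries up to 190 min, an alternative added after seeing the data, 10 fell and 2 rose.

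The promoters of EGR1 and SRF, which moved in opposite directions, both hold the CArG box, the site that SRF binds. They are shown, with that of the SRF target FHL2, because the same motif stands in genes that fell and genes that rose. Each runs from 250 bases before to 50 bases after the RefSeq start (build GRCh38.p14), 5′ to 3′ on the strand of the gene, with CArG boxes in capitals.
EGR1 (chr5:138465229-138465528, plus strand): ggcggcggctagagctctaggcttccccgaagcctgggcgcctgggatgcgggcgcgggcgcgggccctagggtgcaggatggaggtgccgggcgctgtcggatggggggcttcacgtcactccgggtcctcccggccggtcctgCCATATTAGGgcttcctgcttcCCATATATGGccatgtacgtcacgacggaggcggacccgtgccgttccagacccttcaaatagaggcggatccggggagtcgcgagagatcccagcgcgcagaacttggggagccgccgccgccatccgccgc
SRF (chr6:43171019-43171318, plus strand): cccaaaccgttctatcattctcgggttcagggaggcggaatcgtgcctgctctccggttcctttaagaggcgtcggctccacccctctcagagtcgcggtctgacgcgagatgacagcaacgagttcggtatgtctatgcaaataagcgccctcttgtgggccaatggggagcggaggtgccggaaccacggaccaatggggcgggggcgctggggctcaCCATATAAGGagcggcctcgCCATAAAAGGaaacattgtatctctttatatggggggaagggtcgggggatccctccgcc
FHL2 (chr2:105438464-105438763, minus strand): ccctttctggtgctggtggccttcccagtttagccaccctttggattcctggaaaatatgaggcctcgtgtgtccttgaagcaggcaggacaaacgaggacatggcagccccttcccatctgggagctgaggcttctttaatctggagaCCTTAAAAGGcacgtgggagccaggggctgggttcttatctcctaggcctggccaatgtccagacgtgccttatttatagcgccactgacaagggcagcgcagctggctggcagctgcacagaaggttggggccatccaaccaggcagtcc
The boxes of EGR1 begin 105 and 83 bases before the start, those of SRF 30 and 10 bases before it and that of FHL2 101 bases before it. A CArG box, searched on both strands, stands in 1.29% of 27305 RefSeq promoters of this length, in 2.19% of the 1280 promoters matched among genes that rose with a mean of at least 100, and in 2.32% of the 475 matched among those that fell. Among the 39 genes with a rise of at least 2-fold and a mean of at least 100 it stands in 3 of 27 matched promoters (11.1%). Among the 36 with a fall of at least 1.5-fold it stands in 1 of 32 (3.1%), and among tested protein-coding genes in 1.1%. These sets are small and were picked for the size of the change. A match describes letters and is not a measured site.

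Among ERK feedback genes DUSP6 had the largest fall. DUSP6, the phosphatase that acts on ERK in the cytoplasm (chr12:89347235-89352501), had 672, 315 and 223 at 80, 90 and 100 min, against 2280.1, 1615 and 1288 at 50, 60 and 70 min (curve-test adjusted p = 5.45e-31). SPRY1, an inhibitor of receptor tyrosine kinase signaling, had 160.1, 99.5 and 90.2 at 80, 90 and 100 min, against 521, 346 and 261 at 50, 60 and 70 min. The highest later value of each gene was below the lowest earlier one. Of 9 tested dual-specificity phosphatases 5 fell and 2 rose, with a median of -0.22, and DUSP1, the nuclear phosphatase of stress-activated kinases, stood at 10819.7, 7687 and 7255, against 20479, 14807 and 13087 in the earlier window. DUSP5, DUSP10 and DUSP4 fell by 0.33, 0.29 and 0.22 on the log2 scale, with overlapping windows for DUSP4 and DUSP5, whereas DUSP14 rose (0.38 ± 0.11). Of 14 Sprouty, Spred, SOCS and related inhibitors 5 fell and 2 rose. SOCS3, an inhibitor of cytokine receptor signaling, had 2016, 1152 and 1025 at 80, 90 and 100 min, against 3644, 3068 and 2599.5 at 50, 60 and 70 min, and PHLDA1 fell by 0.68 on the log2 scale. SPRY4, SPRED1 and SPRED2 had log2 changes of 0.04, 0.06 and 0.00 and did not pass. ERRFI1, a direct inhibitor of the EGF receptor, rose (0.40 ± 0.09). With spike-in size factors 2 of the phosphatases and 3 of the inhibitors fell, and 1 and 2 rose.

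Growth arrest genes had mostly moderate changes. Of 32 FOXO targets and related genes 14 fell and 4 rose (43.8% and 12.5%), with a median of -0.10; with spike-in size factors 4 fell and 3 rose. CDKN1B, which encodes the CDK inhibitor p27 (chr12:12685498-12722369), had 837, 636 and 463 at 80, 90 and 100 min, against 1951, 1467 and 1237 at 50, 60 and 70 min (curve-test adjusted p = 3.97e-29). It declined at every library of both windows. TXNIP, a thioredoxin-binding protein that limits glucose uptake, had 3043, 2183 and 1914 at 80, 90 and 100 min, against 4467, 4185 and 3495 at 50, 60 and 70 min. YPEL2, ARRDC3, TRIB2, PIK3IP1 and PNRC1 fell by 0.54, 0.54, 0.48, 0.45 and 0.41 on the log2 scale, all without overlap between the windows. FOXO1 itself rose (0.58 ± 0.16), while FOXO3 (-0.01) and FOXO4 (-0.10) did not pass. The BH3-only genes BBC3, BCL2L11 and BMF, which promote apoptosis, fell by 0.86, 0.52 and 0.42 on the log2 scale, and 3 others of the 14 tested BCL2 family genes rose, BCL2 (0.20), BCL2L2 (0.11) and BAK1 (0.11); 2 fell and 0 rose with spike-in size factors. Of 17 p53 targets 3 fell, BBC3, BTG2 and TP53INP1, and 2 rose, CDKN1A (0.21) and PLK3 (0.38), and 2 fell and 1 rose with spike-in size factors. The share that fell was 17.6%, against 4.14% of all genes. The share that rose, 11.8%, was near the 9.44% of all genes. PDK4, a kinase that restrains pyruvate oxidation, fell (-0.67 ± 0.13), as did the glucose transporter gene SLC2A3 (-0.56 ± 0.12).

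The TXNIP promoter is shown because 5 of the 28 matched promoters on this list (17.9%) hold the FOXO motif GTAAACA on either strand, against 3.41% of all 27305. The list was made up around FOXO targets, with FOXO genes and other growth arrest genes, so this share describes the list. The motif is in capitals and begins 124 bases before the start.
TXNIP (chr1:145996530-145996829, minus strand): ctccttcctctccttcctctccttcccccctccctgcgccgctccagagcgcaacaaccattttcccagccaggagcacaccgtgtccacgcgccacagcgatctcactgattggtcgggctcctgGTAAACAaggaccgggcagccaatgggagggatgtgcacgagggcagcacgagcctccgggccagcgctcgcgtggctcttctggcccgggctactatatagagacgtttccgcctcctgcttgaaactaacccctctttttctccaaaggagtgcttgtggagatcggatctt
Of the 5 genes, TXNIP, TRIB2 and HBP1 fell and FOXO4 and YPEL3 (-0.16) did not pass.

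Several further genes among the largest falls belong to other systems. KCNE4, which encodes a regulatory subunit of potassium channels, had 2588, 1961 and 1566 at 80, 90 and 100 min, against 5019.8, 3978 and 3264 at 50, 60 and 70 min, and KCNJ2, a pore-forming subunit, fell by 0.82 on the log2 scale. RGS2, a regulator of G protein signaling, had 1925, 2105 and 1535 at 80, 90 and 100 min, against 4598, 3704 and 2834 at 50, 60 and 70 min. NFKBIZ, a nuclear regulator of NF-kappaB, was level in the later window (594, 623 and 639) after a decline across the earlier one (1460.0, 1029 and 847). TRIB1 and BTG2 fell by 0.82 and 0.78 on the log2 scale. The lncRNA with the largest fall was MIR29B2CHG (chr1:207760650-207879115), the host transcript of miR-29b and miR-29c, with 286, 209 and 180.4 at 80, 90 and 100 min, against 819, 555 and 423 at 50, 60 and 70 min (curve-test adjusted p = 6.02e-26). The mature 3p miRNAs inside the host are given from RefSeq (GRCh38.p14, chromosome 1, minus strand) with the seed, bases 2 to 8, in capitals.
hsa-miR-29b-3p: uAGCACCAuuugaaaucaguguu
hsa-miR-29c-3p: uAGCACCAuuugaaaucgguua
Both carry the seed AGCACCA; the miRNAs themselves were not measured by these libraries. The members of the miR-29 family are known to target mRNAs of collagens and other matrix proteins.

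The other 4 lncRNAs with the largest falls were ENSG00000257298, NPTN-IT1, LINC00939 and PSMD6-AS2. ENSG00000257298 had 235, 219 and 218 at 80, 90 and 100 min, against 823, 474 and 299 at 50, 60 and 70 min, so most of its decline lay inside the earlier window. NPTN-IT1 had 143, 119 and 125 at 80, 90 and 100 min, against 302, 337 and 225 at 50, 60 and 70 min. LINC00939 and PSMD6-AS2 averaged 16.1 ± 0.492 and 20.0 ± 4.92 at 80–100 min, against 34.1 ± 2.4 and 43.4 ± 16.5 at 50–70 min (SD, n = 3 libraries each). Among lncRNAs that rose, MAP3K4-AS1 had 221, 317 and 437 at 80, 90 and 100 min, against 93.1, 109 and 166 at 50, 60 and 70 min. ENSG00000227619, ENSG00000273350 and C1orf220 rose by 1.45, 1.25 and 1.20 on the log2 scale without overlap, and ENSG00000274578 rose by 1.52 with overlapping windows and 1.5 to 18.7 normalized counts in the earlier one. Of 25 well-known lncRNAs 9 rose and 4 fell, with SNHG15 (0.65) and SNHG1 (0.62), hosts of small nucleolar RNAs, at the top, while MALAT1 (0.17), NEAT1 (0.01) and TUG1 (0.09) did not pass; 6 rose and 1 fell with spike-in size factors. No lncRNA past the curve test with a mean of at least 20 starts within 5 kb of the start of any of the 30 protein-coding genes with the largest changes. This search covers exon counts of annotated genes only. The study assembled its own lncRNAs, measured them by intron reads and paired them over greater distances, so its neighbor pairs were not tested here.

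**Figure D3:**
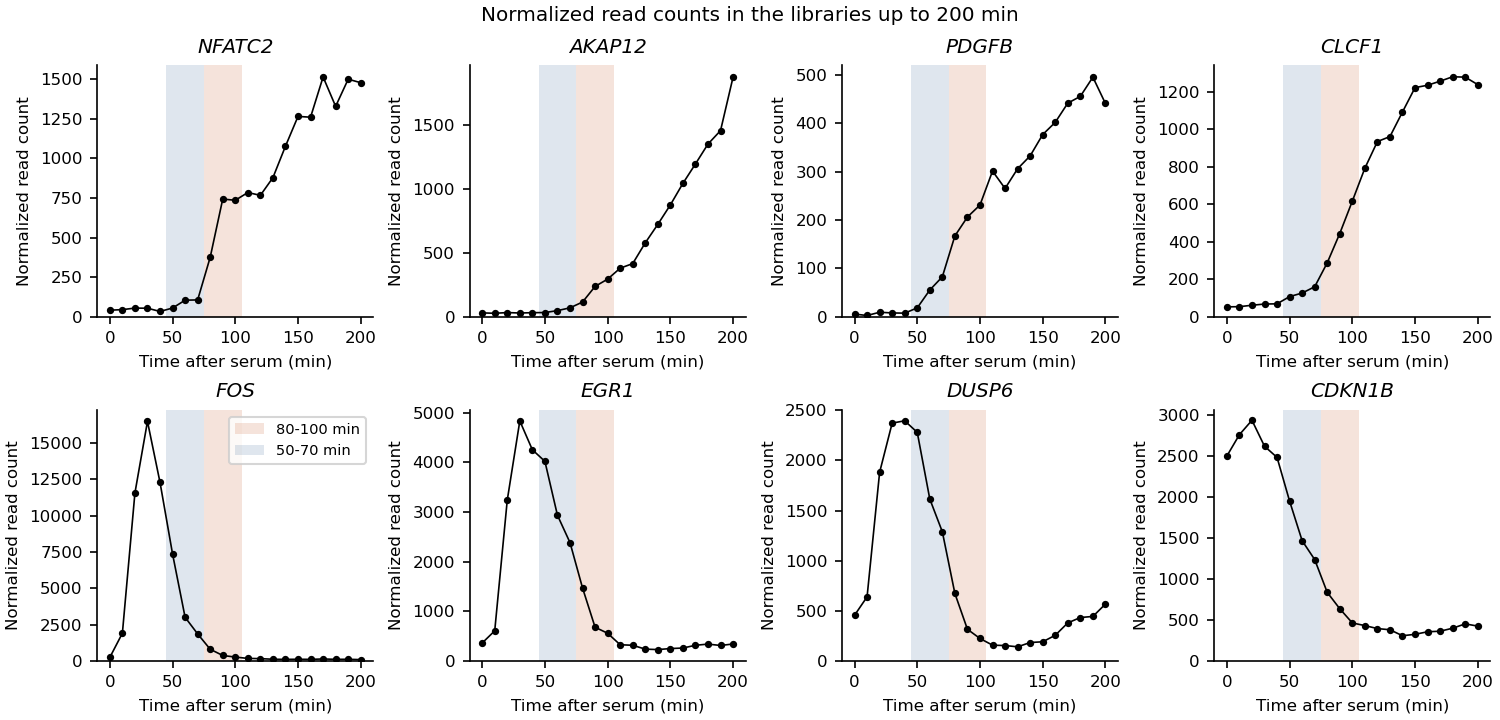
Normalized read count (vertical axes, linear from 0) against minutes after serum (horizontal axes) in the 21 libraries up to 200 min, with the 80–100 min window shaded orange and the 50–70 min window blue. AKAP12, PDGFB and CLCF1 climb at every library of both windows, NFATC2 climbs between 70 and 90 min and is level at 100 min, and FOS, EGR1, DUSP6 and CDKN1B descend at every library of both.

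NFATC2 had the largest rise of all protein-coding genes with a mean of at least 100. This calcium-regulated transcription factor gene (chr20:51386957-51562831) had 375, 743 and 736 at 80, 90 and 100 min, against 54.1, 104 and 105 at 50, 60 and 70 min (curve-test adjusted p = 2.74e-15). Its increase was steepest between 70 and 90 min. AKAP12, a scaffold for protein kinases A and C (chr6:151239967-151358559), had 114, 236 and 294 at 80, 90 and 100 min, against 31.5, 46.7 and 68.6 at 50, 60 and 70 min. PDGFB, the B chain of platelet-derived growth factor (chr22:39223359-39244982), had 167, 206 and 231 at 80, 90 and 100 min, against 18, 55 and 82.3 at 50, 60 and 70 min. The lowest later value of each of these 3 genes was above the highest earlier value. CLCF1, a cytokine of the interleukin-6 family, had 287, 443 and 616 at 80, 90 and 100 min, against 107, 126 and 159 at 50, 60 and 70 min. ZNF469, ZSWIM6, CRISPLD2 and SHISAL1 rose by 1.75, 1.47, 1.44 and 1.30 on the log2 scale, POLR1G, a subunit of RNA polymerase I, by 1.22 and LFNG, a glycosyltransferase that modifies Notch, by 1.25.

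Of 21 tested cytokines, chemokines and growth factors 16 rose and 0 fell (76.2%, against 9.44% of all genes), with a median log2 change of 0.54, and 15 rose with spike-in size factors. LIF, an interleukin-6 family cytokine, had 3076, 3546 and 4251 at 80, 90 and 100 min, against 952, 1533 and 1875 at 50, 60 and 70 min (curve-test adjusted p = 3.56e-28). FGF2, a fibroblast growth factor, was just above its earlier range at 80 min and far above it later (1870.1, 3852 and 5179.8, against 1266, 1619 and 1622). IL11 and CSF2 rose at low counts: IL11 had 39.4, 58.3 and 61.6 at 80, 90 and 100 min, against 12, 16.6 and 20.6 at 50, 60 and 70 min. PDGFA, EDN1 and IL6 rose by 1.08, 1.06 and 1.06 on the log2 scale and CCL2 by 0.82. IL1A (-0.17), IL1B (-0.44), CXCL12 (-0.12), GDF15 (0.01) and STC1 (0.06) did not pass the curve test. Of 9 EGF family ligands and receptors 4 rose, and HBEGF, a ligand of the EGF receptor, had 3114, 3658 and 4177 at 80, 90 and 100 min, against 1272, 1696 and 2051 at 50, 60 and 70 min. TGFA rose at a low level (0.78 ± 0.22), the receptor EGFR rose by 0.19 on the log2 scale, and ERBB2 (-0.16) did not pass. With spike-in size factors 2 of the 9 rose.

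Most SRF and MRTF targets of the cytoskeleton rose. Of 33 tested genes 24 rose and 0 fell (72.7%), with a median of 0.35, and 21 rose with spike-in size factors. MICAL2, an actin-oxidizing enzyme, had 2073, 2682 and 3251 at 80, 90 and 100 min, against 1011, 1181 and 1270.1 at 50, 60 and 70 min. VCL, the focal adhesion protein vinculin, had 19189.6, 21698 and 22289.6 at 80, 90 and 100 min, against 8073, 13271 and 14317 at 50, 60 and 70 min. Tropomyosins TPM1, TPM2 and TPM4 rose by 0.49, 0.27 and 0.20 on the log2 scale, actinins ACTN1 and ACTN4 by 0.39 and 0.35, filamin FLNA by 0.31 and zyxin ZYX by 0.49. The actin genes differed: ACTG1 rose (0.43 ± 0.09), whereas ACTB had 103120.0, 89737 and 90789.5 at 80, 90 and 100 min, against 80980.0, 89602 and 93777 at 50, 60 and 70 min, and did not pass. CFL1 (-0.00), TLN1 (0.07) and TPM3 (0.07) did not pass either. FHL2, whose promoter is printed above, rose (0.52 ± 0.11). All 6 members with a CArG box in the promoter window (ACTG1, CNN2, FLNA, FHL2, TPM4 and SRF, of 31 matched) were among those that rose. The list was made up around SRF and MRTF and 24 of its 33 genes rose, so this describes the list. A link between the box and the rise was not tested.

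Targets of YAP and TEAD, the effectors of the Hippo pathway, rose in 18 of 20 cases and fell in 0, with a median of 0.34; 12 rose with spike-in size factors. ANKRD1, an ankyrin repeat protein and classic YAP target, had 3274, 4394 and 5149 at 80, 90 and 100 min, against 1113, 2062 and 2178 at 50, 60 and 70 min (curve-test adjusted p = 4.61e-27). TEAD4 rose by 0.76, CRIM1 by 0.62, AJUBA by 0.54 and CCN1 by 0.34 on the log2 scale. CCN2 did not pass, although its values of 34946, 30700.2 and 32548 at 80, 90 and 100 min were all above 24502, 28119 and 29493 at 50, 60 and 70 min. The ANKRD1 promoter is shown because 6 of 13 matched members of the list (46.2%) hold the TEAD motif GGAATG on either strand, against 14% of all promoters. The list was made up around YAP and TEAD, so this share describes the list. Among genes that rose with a mean of at least 100 the motif stands in 11.2% of matched promoters. Among tested protein-coding genes it stands in 10.9%. Capitals mark GGAATG, which begins 220 and 128 bases before the start, and the AP-1 motif TGANTCA, which begins 195 bases before it and stands in 7.76% of all promoters.
ANKRD1 (chr10:90921038-90921337, minus strand): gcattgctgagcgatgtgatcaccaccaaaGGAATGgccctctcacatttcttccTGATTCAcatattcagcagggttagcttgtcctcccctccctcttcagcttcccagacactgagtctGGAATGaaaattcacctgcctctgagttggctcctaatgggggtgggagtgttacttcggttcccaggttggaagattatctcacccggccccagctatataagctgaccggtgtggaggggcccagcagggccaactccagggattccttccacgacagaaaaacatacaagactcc
Of those 6 members, CCN2 alone did not pass.

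Of 15 TGF-beta feedback genes 13 rose and 2 fell (86.7% and 13.3%), with a median of 0.42; 9 rose and 1 fell with spike-in size factors. PMEPA1, an inhibitor of SMAD signaling, had 1808, 2195 and 2556 at 80, 90 and 100 min, against 688, 931 and 1172 at 50, 60 and 70 min. SMURF2, a ubiquitin ligase for SMAD proteins and receptors, and TGFB2, a ligand, rose by 0.99 and 0.82 on the log2 scale. SMAD7, the inhibitory SMAD, was level in the later window (3749.6, 3599.8 and 3463) and above 1648, 2585 and 3162 in the earlier one. The members that fell were the corepressor TGIF1, with 1981, 1624 and 1477 at 80, 90 and 100 min, against 2366, 2357 and 2279.5 at 50, 60 and 70 min, and LDLRAD4 (-0.19 ± 0.13), whose windows overlap and whose 6-library difference turned positive (0.048) with spike-in size factors. Of 27 genes of the plasminogen system, proteases and matrix 15 rose and 2 fell, and 12 and 1 with spike-in size factors. COL4A1, LOX, TNC, THBS1 and PLAUR rose by 0.98, 0.63, 0.51, 0.50 and 0.39 on the log2 scale, the proteases ADAMTS1 and ADAMTS5 fell by 0.45 and 0.36, and MMP1 (0.05), FN1 (0.07) and SPARC (0.06) did not pass. TIMP3 rose to 27537, 27389 and 27599 at 80, 90 and 100 min, against 17832, 22987 and 23172 at 50, 60 and 70 min, and TGFBI rose by 0.26 on the log2 scale.

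**Figure D4:**
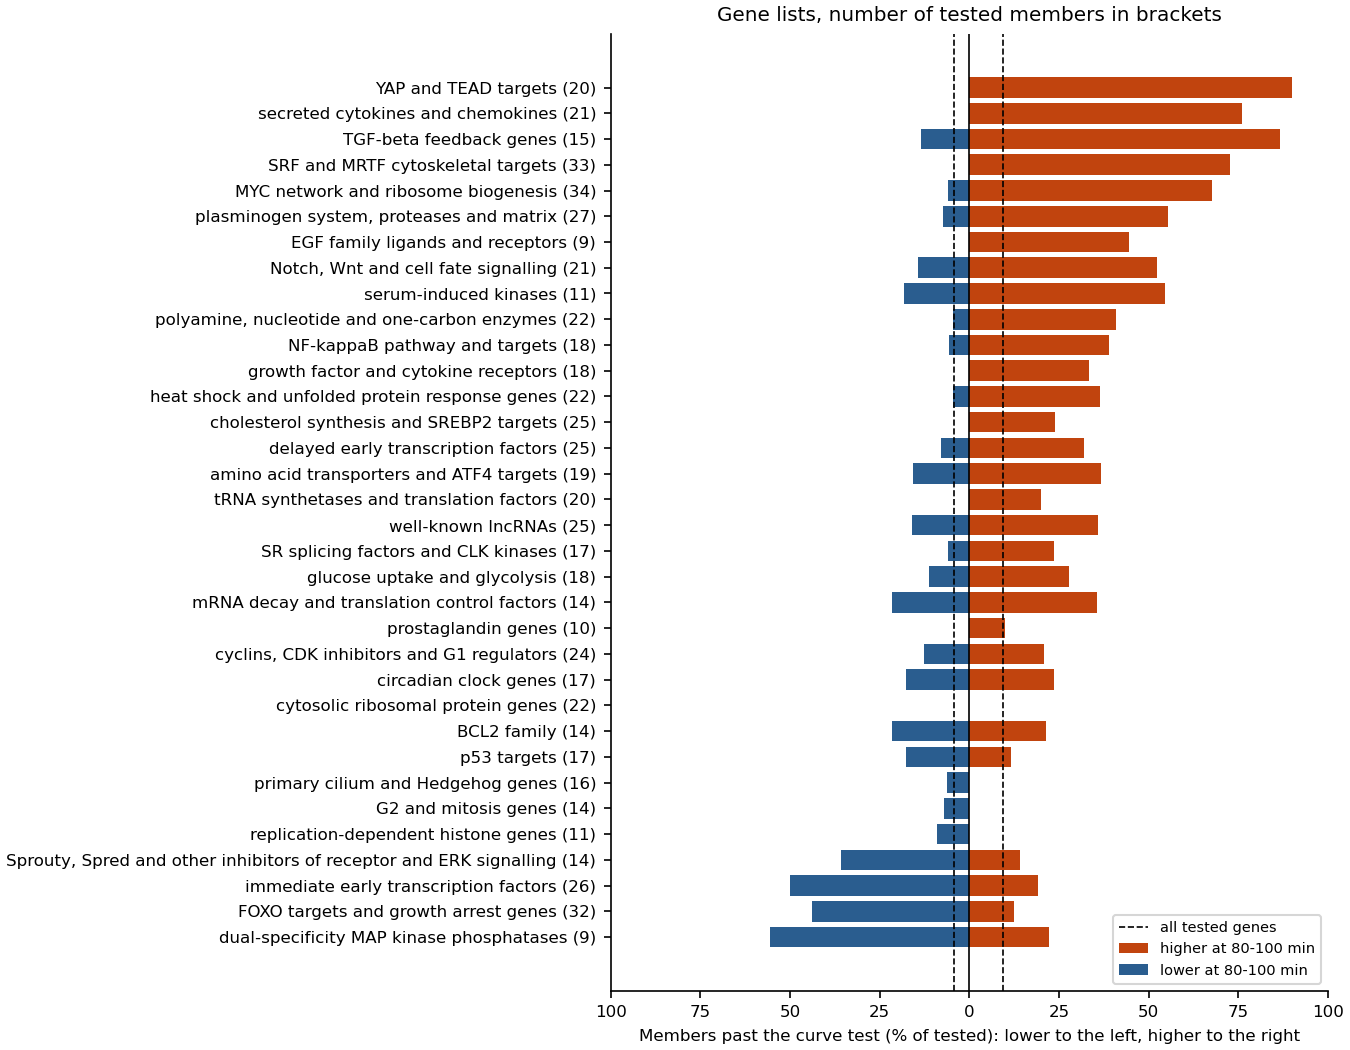
Share of the tested members of each of 34 gene lists that passed the curve test (horizontal axis, percent), with orange bars to the right for genes higher at 80–100 min and blue bars to the left for genes lower, and dashed lines for all tested genes (9.44% and 4.14%). The lists were chosen with earlier results of these data known, so the bars describe the lists. YAP and TEAD targets, TGF-beta feedback genes, secreted cytokines and SRF targets have the longest bars to the right (18 of 20, 13 of 15, 16 of 21 and 24 of 33). Phosphatases, immediate early factors and FOXO targets have the longest to the left (5 of 9, 13 of 26 and 14 of 32). With spike-in size factors 2, 8 and 4 of these fell and 1, 5 and 3 rose, against 0.536% and 4.85% of all tested genes.

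Later-acting transcription factors and kinases mostly rose or did not pass. Of 25 delayed early factors 8 rose and 2 fell (6 and 1 with spike-in size factors, 9 and 5 with the GC offsets), with KLF7 (0.81 ± 0.23), the AP-1 subunit FOSL1 (0.51 ± 0.13) and SNAI2 (0.42) at the top and TGIF1 and CEBPD (-0.31) as those that fell. Of 11 serum-induced kinases 6 rose and 2 fell (6 and 1 with spike-in size factors): SGK1, SIK1, MAP3K14 and PLK3 rose by 0.56, 0.53, 0.52 and 0.38 on the log2 scale and the pseudokinase TRIB1 and PIM1 fell by 0.82 and 0.31. Of 18 genes of the NF-kappaB pathway 7 rose, RELB (0.67 ± 0.13), CD83 (0.58) and TRAF1 (0.57) foremost, and NFKBIZ alone fell; ICAM1 (0.25) and BIRC3 (0.48) did not pass. Of 18 receptors for growth factors and cytokines 6 rose and 0 fell, among them MET (0.59, windows overlapping), TNFRSF12A (0.58), F2RL1 (0.50) and IGF1R (0.41). PDGFRB (-0.00) and INSR (0.01) did not pass. In the Notch, Wnt and cell fate list 11 of 21 rose and 3 fell, with TCF7 (0.82) and the Wnt inhibitor DKK1 (0.61) after LFNG, and AXIN2 and DLL1 falling by 0.47 and 0.47 on the log2 scale beside HES1; 7 rose and 1 fell with spike-in size factors. Among 14 factors of mRNA decay and translation control 5 rose and 3 fell. SAMD4A, a repressor of translation, had 718, 1031 and 1612 at 80, 90 and 100 min, against 451, 553 and 622 at 50, 60 and 70 min, while ZFP36, BTG2 and BTG1 fell; 3 rose and 3 fell with spike-in size factors.

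Ribosome biogenesis genes rose by smaller amounts. Of 34 genes of the MYC network and ribosome biogenesis 23 rose and 2 fell (67.6% and 5.88%), with a median of 0.21; 18 rose and 0 fell with spike-in size factors. RRS1, a ribosome assembly factor, had 663, 777 and 779 at 80, 90 and 100 min, against 404, 391 and 509 at 50, 60 and 70 min. NOP16, PPAN, NIP7, BYSL and NOP56 rose by 0.60, 0.50, 0.46, 0.45 and 0.41 on the log2 scale; PPAN shares 47.6% of its exonic bases with PPAN-P2RY11. The members that fell, MXD1 (-0.15) and MNT (-0.06), encode antagonists of MYC. The E-box CACGTG, which MYC can bind, stands in 9 of 28 matched promoters of the list (32.1%), against 9.97% of those of tested protein-coding genes and 12.8% of those of genes that rose with a mean of at least 100; the list was made up around MYC, so this share describes the list. The 22 genes of cytosolic ribosomal proteins gave no call in either direction, with log2 changes of -0.09 to 0.02. In the list of polyamine, nucleotide and one-carbon enzymes 9 of 22 rose, CTPS1 (0.76 ± 0.13), the enzyme that makes CTP, foremost, and SAT1, which degrades polyamines, fell (-0.48); 2 rose and 0 fell with spike-in size factors. The amino acid transporter genes SLC7A5 and SLC7A1 rose by 0.79 and 0.66 on the log2 scale in a list of which 7 of 19 rose and 3 fell, the stress genes DDIT3 and DDIT4 among those that fell (-0.35 and -0.38); 4 rose and 2 fell with spike-in size factors. Of 18 genes of glucose uptake and glycolysis 5 rose and 2 fell, with a median log2 change of -0.04. PFKP (0.44) and the phosphofructokinase regulators PFKFB4 (0.34) and PFKFB3 (0.27) were foremost among those that rose. LDHA (0.00), PKM (-0.02) and GAPDH (-0.10) did not pass. With spike-in size factors 1 of the 18 rose and 2 fell. Of 20 tRNA synthetase and translation factor genes 4 rose, EIF5 (0.30) foremost, 10 with the GC offsets and 1 with spike-in size factors.

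CCND1, the D-type cyclin of G1, had 7640.4, 8421 and 8511 at 80, 90 and 100 min, against 4006, 5461 and 6259 at 50, 60 and 70 min (curve-test adjusted p = 5.59e-27). In the list of G1 regulators, 5 of 24 rose and 3 fell, and 2 and 1 with spike-in size factors, while E2F1 (-0.10), CCNE2 (-0.00) and PCNA (-0.04) did not pass. Of 14 genes of G2 and mitosis 0 rose and 1 fell, CCNB1 (-0.16), whose 6-library difference turned positive (0.11) with spike-in size factors; 13 of the 14 had a negative log2 change, and 5 fell with the GC offsets. In the circadian clock list 4 of 17 rose, BMAL1 (0.70 ± 0.12), BHLHE41 (0.55), CRY1 (0.48) and PER2 (0.22), and 3 fell, CIART (-0.70), NR1D1 (-0.56) and DBP (-0.23). BMAL1 had 849, 1065 and 1109 at 80, 90 and 100 min, against 548, 636 and 668 at 50, 60 and 70 min. Genes of cholesterol synthesis, heat shock and SR splicing factors rose in 6 of 25, 8 of 22 and 4 of 17 cases with log2 changes of at most 0.33, 0.32 and 0.37, and in 1, 2 and 1 cases with spike-in size factors. With the GC offsets 8, 10 and 6 rose. HSPH1, a chaperone of the heat shock response, had 2423, 3910.2 and 3788 at 80, 90 and 100 min, against 2743, 2861 and 2522 at 50, 60 and 70 min, so its 80 min value was below the whole earlier window. Of 10 prostaglandin genes only PTGER2 passed (0.29, windows overlapping), a share of 10% that is near the 9.44% of all genes. PTGS2 had 204, 243 and 253 at 80, 90 and 100 min, against 206, 246 and 213 at 50, 60 and 70 min. Of 11 histone genes and 16 cilium and Hedgehog genes, H1-2 (-0.26) and PTCH1 (-0.05) alone fell; neither passed with spike-in size factors, under which the 6-library difference of PTCH1 turned positive (0.19).

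Among genes of other kinds, the largest rises with a mean of at least 100 were those of ENSG00000243444 (0.99), ENSG00000255275 (0.82) and ENSG00000277117 (0.80), and the largest falls those of NMRAL2P (-0.74), ENSG00000274845 (-0.71) and ENSG00000261490 (-0.68). NMRAL2P, a pseudogene, shares all its exonic bases with another gene model of that symbol, and 97.8% of the exonic bases of ENSG00000274845 lie in NABP1 on the same strand, where a shared read was counted for both genes. Of 13 genes that the study singled out 6 rose and 5 fell, and 3 and 3 with spike-in size factors; the list was chosen on this course, so it is not independent evidence of a direction. TPM4, DSTN and PARVA rose by 0.20, 0.19 and 0.16 on the log2 scale, and CACNA1C had 535, 433 and 431 at 80, 90 and 100 min, against 404, 455 and 457 at 50, 60 and 70 min, without passing (0.09, and -0.029 without the 80 min library). The 6 protein-coding genes with the largest changes and separate windows that missed the curve test were CDC25C (-0.56), CDCA8 (-0.49), REEP6 (-0.41), KIFC1 (-0.40), ZNF486 (-0.39) and MAST3 (0.39). CDC25C, CDCA8 and KIFC1 act in mitosis, and their curve-test adjusted p lay between 0.0802 and 0.0925.

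Within the 6 libraries the change was not confined to the boundary between the windows. Among 1124 genes that rose with a mean of at least 100 and separate windows, the largest increase between neighboring libraries lay between 70 and 80 min in 432 (38.4%), between 50 and 60 min in 329 (29.3%), between 80 and 90 min in 227 (20.2%), between 60 and 70 min in 76 and between 90 and 100 min in 60. Among 371 genes that fell, the largest decrease lay between 70 and 80 min in 111 (29.9%), between 80 and 90 min in 108 (29.1%), between 60 and 70 min in 65, between 90 and 100 min in 47 and between 50 and 60 min in 40. In 259 and 108 genes (23% and 29.1%) the values moved in the called direction at every one of the 5 intervals. These counts describe genes chosen for a difference between the windows, and the 80 min library with its GC trend takes part in 2 of the intervals. The genes that rose took 10.5% ± 0.847 of the counts at 80–100 min and 8.37% ± 0.697 at 50–70 min, and those that fell 2.55% ± 0.12 and 3.03% ± 0.0809 (SD, n = 3 libraries each, a description of the chosen genes).

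The step was also compared with the steps on either side, as a difference of differences. In the window fit of 13 libraries 0 genes differed from the step before, 20–40 to 50–70 min, in either direction, with 1014 genes (4.69%) at an unadjusted p below 0.05; DESeq2 called 1 more positive and 4 more negative. For the step after, 80–100 to 110–140 min, 0 genes differed in edgeR, 611 (2.82%) had an unadjusted p below 0.05, and DESeq2 called 0 and 1. By the curve test 349 genes had a more positive and 374 a more negative change than in the step before (1.61% and 1.73%; 424 and 534 with the GC offsets, the 30 min library with its GC trend being part of the 20–40 min window), and 267 and 504 a more positive and a more negative change in the step after than in this one (1.23% and 2.33%). SHISAL1 and HRH1, a histamine receptor, began to rise in this step: SHISAL1 averaged 159, 171, 430 and 922 normalized counts at 20–40, 50–70, 80–100 and 110–140 min, and HRH1 averaged 422, 465, 895 and 1599. By the curve test the differences from the step before were 1.16 ± 0.09 and 0.84 ± 0.07 (log2, SE, adjusted p = 1.22e-13 and 3.84e-12). These and the differences between steps below are read from the fitted curve. The window means are not, and the 2 can differ in size where a gene changes abruptly. AKAP12, which had begun to climb within 50–70 min, averaged 30.0, 49.0, 215 and 524. In contrast, ANKRD1, SMAD7, ID4 and NKX1-2 had their steeper change in the step before: SMAD7 averaged 459.8, 2465, 3604 and 2709.9, a difference of -1.89 ± 0.08 (adjusted p = 8.59e-22).

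HES1 had its highest window mean at 50–70 min, averaging 881, 4077, 2605 and 613 at 20–40, 50–70, 80–100 and 110–140 min, and its change differed from the step before by -2.97 ± 0.13 (adjusted p = 3.89e-19) and was followed by a still more negative one (difference -1.66 ± 0.09). DUSP6 was at 2216 and 1727 in the earlier windows, 403 at 80–100 min and 158 at 110–140 min, so that its fall was steeper here than before (-1.97 ± 0.10) and than after (1.05 ± 0.07). FOS, SPRY1, RGS2 and NFKBIZ also fell less, or rose again, in the step after. NFKBIZ averaged 1606, 1112, 619 and 919.6 in the 4 windows. NFATC2, PDGFB and LFNG rose less in the step after than in this one, with 877 as the 110–140 min mean of NFATC2, and SNAI1 and IER5L turned down. SNAI1 averaged 400.5, 1236, 1635 and 871 in the 4 windows.

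**Figure D5:**
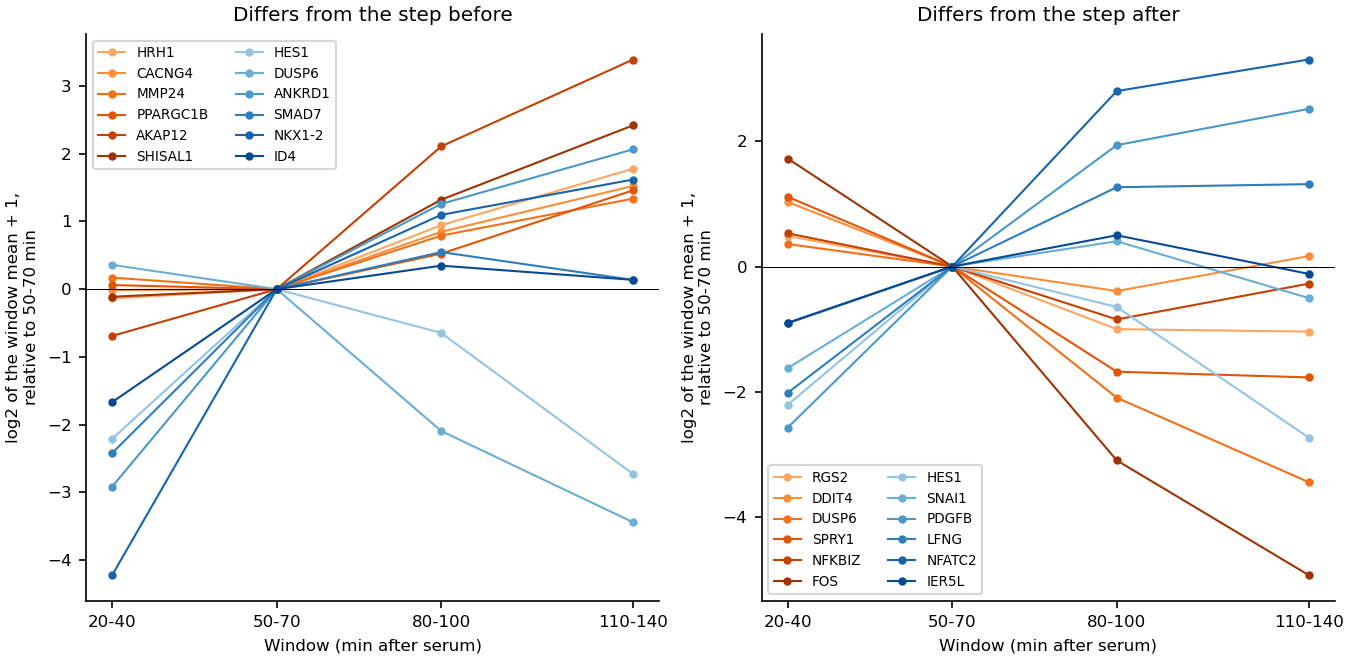
Log2 of the window mean plus 1, relative to the 50–70 min window (vertical axes), in the windows 20–40, 50–70, 80–100 and 110–140 min (horizontal axes) for the genes whose change at 80–100 min differed most from the step before (left) or after (right), in orange for a more positive and in blue for a more negative difference. SHISAL1 and HRH1 are flat before 50–70 min and climb after it, whereas HES1 peaks at 50–70 min with a mean of 4077.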

How the data were processed

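Total RNA from T98G cells was sequenced after rRNA depletion and stranded TruSeq preparation, with 77 spike-in sequences, in 41 libraries of 1 time point each. Per the labels and the study's methods, the authors trimmed reads with cutadapt 1.11, aligned them to GRCh38 with STAR 2.5.2a and counted reads over GENCODE 29 exons with featureCounts by strand, with a read counted for every gene it overlaps or maps to. The deposited tables hold raw counts and the same counts divided by DESeq2 1.24.0 size factors (the normalized signal). The size factors were recovered from the deposited columns, and 0 columns of no sample were found.

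Genes with over 10 counts in 1 library and over 2 in 3 consecutive ones were tested (21629). The window test fitted the 6 libraries with edgeR 4.0.16 (quasi-likelihood, R 4.3.3) under the deposited size factors, with Benjamini–Hochberg adjustment and a threshold of 0.01. The curve test fitted a natural cubic spline of time to 41 libraries (knots at 20, 40, 60, 100, 160 and 260 min) with the same tool. It was listed as an alternative and was used to name genes after the window test gave 0 calls. The members, gene lists and tests were chosen with earlier results of these data known. Tested on simulated data with 50 changed genes per fold, the window test recovered 2, 26, 50 and 50 at 1.25, 1.5, 2 and 4-fold. The curve test recovered 7, 35, 49 and 50. In the measured libraries the window test called 0 genes, although 98 genes past the curve test rose and 47 fell by at least 2-fold. Whether the recovered counts hold for the measured libraries was not tested.

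Named were the 15 protein-coding genes with the largest called change each way (mean at least 100), 5 lncRNAs each way (mean at least 20), leading members of the lists, 6 large changes that missed the threshold, 6 genes per direction whose change differed most from the steps before and after, genes the study names, 3 genes of other kinds each way, and lncRNAs starting within 5 kb of the first set. Gene positions come from GENCODE 44, in which 469 genes (a median of 6.35% of counts) had no match, and sequences from RefSeq. The 45 Y copies of pseudoautosomal genes were left out, and some named genes and 1 gene list are not reported here. DESeq2 1.42.0, other scalings, filters, knots and left-out libraries were alternatives. The depth was 28043669 to 64948114 counts a library; counting error is small for genes with a mean of at least 100 and larger for those named at lower counts, and p-values measure only the spread between libraries, which may be technical.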

Additional observations from a re-analysis of the deposited data

Results flagged for a closer look

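The changes below differed between this step and a neighboring one in the curve test of the difference itself (log2, adjusted p below 0.01). Their sizes and order are those of the fitted curve and can differ from those of the window means printed beside them. More positive than in the step before were SHISAL1 (1.16), AKAP12 (0.979), PPARGC1B (0.919), MMP24 (0.913), CACNG4 (0.848) and HRH1 (0.845). PPARGC1B, a coactivator of nuclear receptors, averaged 121 at 80–100 min and 83.8 at 50–70 min, and MMP24, a membrane-type metalloproteinase, averaged 136 at 80–100 min and 78.3 at 50–70 min. CACNG4, a subunit of calcium channels and glutamate receptors, averaged 213 at 80–100 min and 118 at 50–70 min. More negative than in the step before were HES1 (-2.97), DUSP6 (-1.97), ANKRD1 (-1.96), SMAD7 (-1.89), NKX1-2 (-1.80) and ID4 (-1.74). In the order 20–40, 50–70 and 80–100 min, NKX1-2 averaged 4.89, 109 and 235 normalized counts and ID4 averaged 186, 592 and 754. In the step after, the change was more positive than here for FOS (1.23), NFKBIZ (1.17), SPRY1 (1.15), DUSP6 (1.05), DDIT4 (0.977) and RGS2 (0.954). It was more negative for HES1 (-1.66), SNAI1 (-1.49), PDGFB (-1.46), LFNG (-1.29), NFATC2 (-1.24) and IER5L (-1.24). Each comparison of steps shares the middle window, and these genes were chosen for the size of the difference.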

How the results depend on the processing

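With 1 library per time point, the main limit is that neighboring times stand in for replicates. The window test called 0 higher and 0 lower; this did not change under TMM or library-size scaling, a mean of at least 50, an adjusted p of 0.05, thinned counts, the inner times alone or GC offsets. It became 165 and 9 with spike-in size factors, 503 and 107 with no filter, 239 and 46 in DESeq2, 505 and 95 with windows in a fit of 41 libraries, 110 and 15 with 4 windows, 109 and 30 with a common slope within windows, and 2042 and 896 in the curve test; leaving out single libraries gave 0 to 585 and 0 to 99, and only the loss of the 80 min library moved it. The difference from the step before gave 0 and 0, and 1 and 4 in DESeq2, 4 and 15 in the 41-library windows, 349 and 374 in the curve and 424 and 534 with GC offsets in it (left-out libraries 0 to 1 and 0 to 2). The difference from the step after gave 0 and 0, and 0 and 1 in DESeq2, 0 and 2 in the 41-library windows, 267 and 504 in the curve and 391 and 674 with GC offsets in it (left-out libraries 0 to 0 and 0 to 1). The curve test gave 1049 and 116 with spike-in size factors; the lower count was 1377 with even knots, 1515 with GC offsets and 1509 at an adjusted p below 0.05. Asking for separate windows left 1299 and 500, and left-out libraries gave 1655 to 2046 and 697 to 901. Of 5674 alternative values for the 178 named genes, 7 reversed: with spike-in size factors PTCH1 (0.19), CCNB1 (0.11), FOSB (0.061) and LDLRAD4 (0.048), and PTCH1 with 80 and 90 against 60 and 70 min (0.065). With single libraries left out PTCH1 ranged from -0.17 to 0.023 (positive without the 100 min library) and CACNA1C from -0.029 to 0.14 (negative without the 80 min library). The cause was not tested.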
